A study of Mus musculus with 12 samples.

Results

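miR-204, miR-211, miR-708, miR-346 and miR-455 have been linked to PERK, to the transcription factor XBP1 or to ER stress more widely, and every array miRNA that carries 1 of these 5 numbers, main strand or star, was followed. The rule found 7 of the 611 mouse miRNAs on the array: miR-204, miR-211, miR-708, miR-708*, miR-346, miR-455 and miR-455*. The cells were mouse embryonic fibroblasts (MEFs) of C57BL/6 background, either lacking ATF6b (ATF6bKO) or wild type for it (ATF6bWT). Small RNA of 100 ng of total RNA was labelled with Cy3 and read on 1-colour Agilent miRNA arrays. The 6 groups were KO cells left untreated or given tunicamycin at 2 ug/mL for 12 h or 24 h, and WT cells left untreated or given the same treatments, with 2 arrays each. Tunicamycin blocks N-linked glycosylation and so loads the endoplasmic reticulum with unfolded protein. The labels give no line, clone or animal behind a replicate, so the spread between the 2 arrays of a group may be technical. A miRNA array does not read Atf6b, and the genotype labels could not be checked.

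Unfolded protein in the endoplasmic reticulum is sensed by PERK, IRE1 and ATF6 (with its relative ATF6b). PERK slows translation and raises ATF4 and CHOP, IRE1 splices the mRNA of XBP1 into its active form, and the ATF6 proteins are cut into transcription factors. MicroRNAs have been described downstream of the PERK and IRE1 arms: miR-708 is transcribed with its host gene (Odz4, now Tenm4) under CHOP and targets rhodopsin in the eye, miR-211 lies in Trpm1, depends on PERK and represses Chop, and miR-346 rises with spliced XBP1 and targets the peptide transporter gene TAP1. miR-204, which lies in Trpm3, is the near twin of miR-211 and is known from retina, lens and pigment epithelium. miR-455 lies in the collagen gene Col27a1 and is known from cartilage, and in the mouse heart it was reported among miRNAs lowered by ATF6.

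The mature sequences, from RefSeq on GRCm38.p6, show which members could act on, and could be read through, the same letters. They are printed 5′ to 3′ with bases 2 to 8, the seed that pairs with targets, in capitals. The last line is miR-28a-5p, which is no member and is shown because it has the seed of miR-708-5p.
miR-204-5p: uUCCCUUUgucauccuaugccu
miR-211-5p: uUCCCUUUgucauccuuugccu
miR-708-5p: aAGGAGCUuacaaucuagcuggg
miR-708-3p: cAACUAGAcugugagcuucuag
miR-346-5p: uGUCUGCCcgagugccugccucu
miR-455-5p: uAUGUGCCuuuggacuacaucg
miR-455-3p: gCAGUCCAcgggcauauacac
miR-28a-5p: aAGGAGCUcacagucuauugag

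miR-204-5p (chr19:22750610-22750631, plus strand, within Trpm3) and miR-211-5p (chr7:64205831-64205852, plus strand, within Trpm1) are identical at 21 of 22 positions. They differ by A17U, counted from the 5′ end with miR-204-5p first. miR-708-5p (chr7:96249450-96249472, plus strand, within Tenm4) shares its seed with miR-28a-5p (chr16:24827868-24827889, plus strand, within Lpp) and matches it at 16 of the 22 positions compared. miR-346-5p lies at chr14:34894624-34894646 on the plus strand within Grid1. The 5p and 3p arms of miR-455 lie at chr4:63256867-63256888 and chr4:63256904-63256924 on the plus strand within Col27a1. All 5 numbers were found in RefSeq, with 10 arms between them. The array names carry no arm, and probe sequences were not used here, so which arm a name without a star reads is not given by the files. This matters most for miR-455, whose arms have both been called the main strand in the literature.

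Detection came first, because a level below it has only an upper limit. The scanner software called members detected on 4 of 84 pairs of member and array (4.76%), against 1893 of 7332 pairs (25.8%) over all mouse miRNAs. miR-708, miR-708*, miR-455 and miR-455* were detected on none of the 12 arrays, as were 355 of the 611 mouse miRNAs (58.1%). miR-204 and miR-211 were each detected on 1 array, replicate 1 of untreated KO cells. miR-346 was detected on that same array and on replicate 2 of WT cells after 12 h of tunicamycin. No member was detected on both arrays of any group. In RNA from a culture, fewer cells that make a miRNA and less of it per cell cannot be told apart.

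Of the 4 detections, 3 thus sat on 1 array, and that array stood apart in its background. Among 351 mouse miRNAs, none a member, that no array detected, the 95th percentile of signal was 24.0 intensity units on replicate 1 of untreated KO cells, against 4.18 to 8.71 units on the other 11 arrays. The standard deviation of the same signals was 16.1 units there, against 4.75 to 8.18 units elsewhere. It was the only array to detect 17 of the mouse miRNAs, and each other array had 0 to 5 such miRNAs of its own. miR-211 was the brightest of those 17, at 131.4 units, followed by let-7b* at 108.6 units. The 39 viral miRNAs, which uninfected cells should lack, reached 170.3 units on that array, 132.3 units on replicate 1 of untreated WT cells and 28.8 to 63.8 units on the other 10 arrays. On replicate 1 of untreated KO cells 3 of them were detected, against 0 to 2 elsewhere. Without that array, 1 of 77 member pairs was detected (1.30%), and of the member spots the software marked as well above background, 21 lay on it and 3 on the other 11 arrays.

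**Figure D1:**
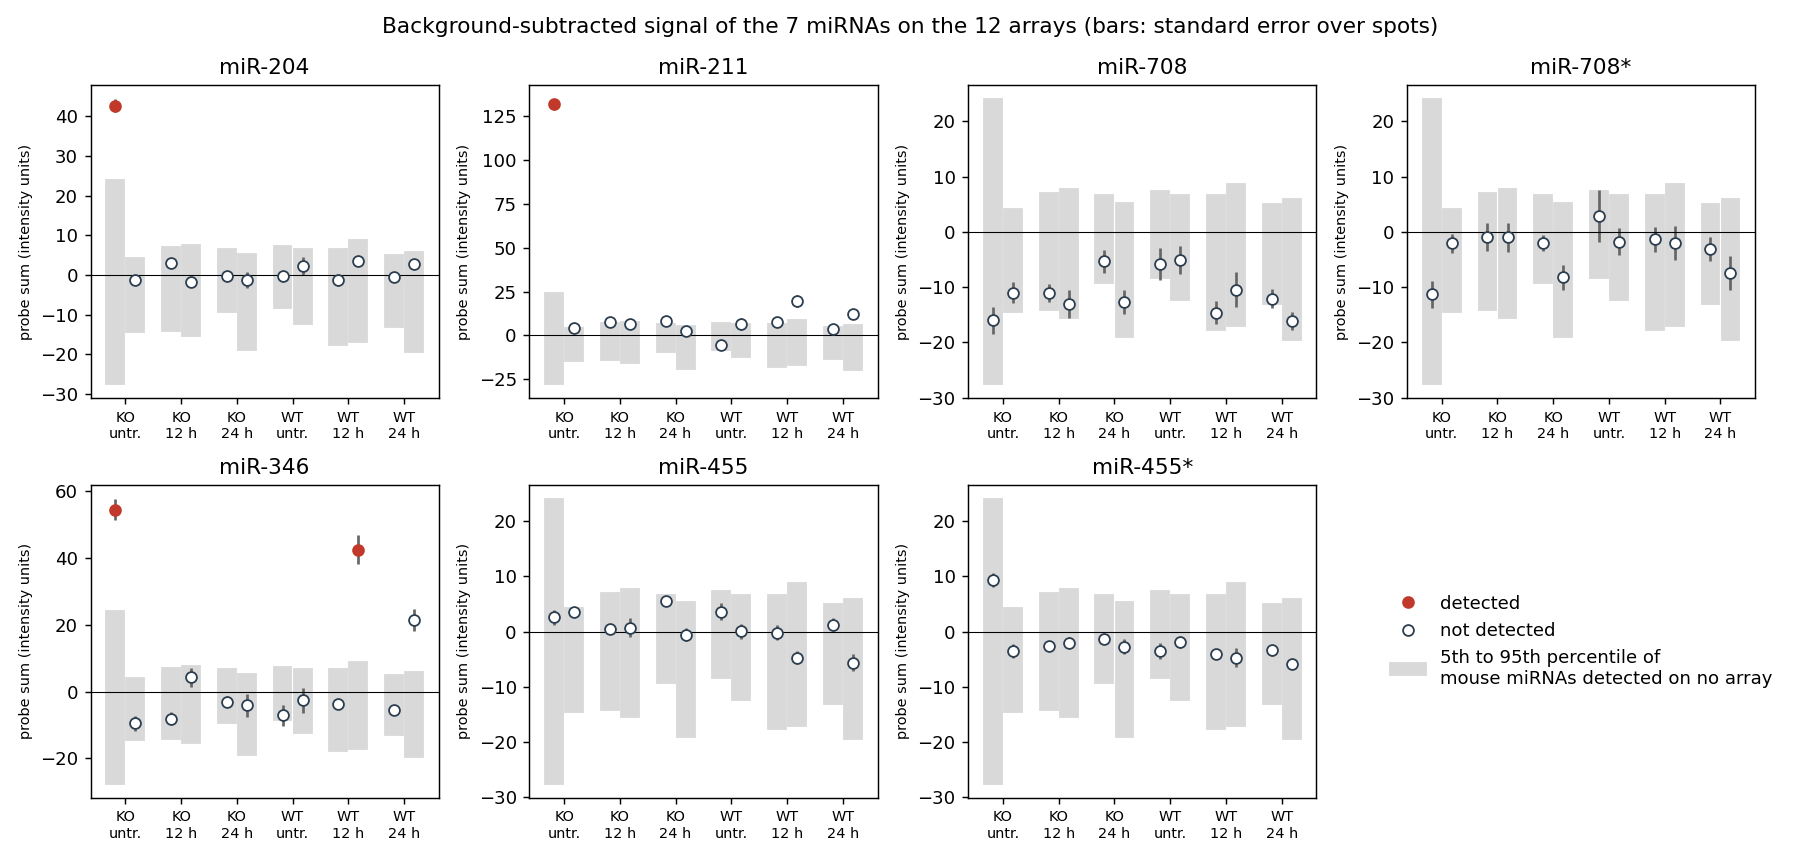
Background-subtracted signal of each of the 7 miRNAs on each array, in intensity units, with KO groups left of WT groups and replicate 1 left of replicate 2. Points are sums over probes, bars are standard errors over spots, filled points were detected and grey boxes span the 5th to 95th percentile of mouse miRNAs detected on no array. The 4 detected points are those of miR-204 at 42.7 units, miR-211 at 131.4 units and miR-346 at 54.3 and 42.4 units.

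miR-211 has been described as the PERK-dependent brake on Chop. Its probe sums in KO cells were 131.4 and 4.06 units untreated, 7.80 and 6.46 units after 12 h of tunicamycin, and 8.37 and 2.53 units after 24 h. In WT cells they were -5.65 and 6.38 units untreated, 7.78 and 19.7 units after 12 h, and 3.48 and 12.1 units after 24 h. One array of 12 was high, and its own replicate lay with the rest. Both treated KO groups and the WT 24 h group overlapped the untreated group of their genotype. The WT 12 h arrays both read above both untreated WT arrays, with miR-211 detected on none of the 4. At 12 h miR-708 separated the other way in WT cells, also undetected. The share of all mouse miRNAs that separated either way is not given here. In limma with all 611 mouse miRNAs the miR-211 difference was 0.55 ± 1.096 on the floored log2 scale (SE, adjusted p = 1). Of the 4 arrays only replicate 2 at 12 h lay above the floor, so this value is no measured fold change. The sum was positive on 11 of 12 arrays and above the 95th percentile of never-detected miRNAs on 6 of them. All 4 probes had a positive median. Of its spots, 35.6% were significantly above background in the software's own test, against 11.01% for never-detected mouse miRNAs. The share was 28.2% for miR-455, 25.6% for miR-346, 18.9% for miR-204 and 6.17% for miR-455*. Without replicate 1 of untreated KO cells it was 29.95% for miR-211, 26.6% for miR-455, 19.3% for miR-346, 11.5% for miR-204 and 4.33% for miR-455*, against 10.8% for never-detected mouse miRNAs.

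On the array that detected it, the 4 probes of miR-211 read 23.5 to 39.3 units each. No never-detected mouse miRNA was as bright there, and 1 of the 39 viral miRNAs was brighter. The never-detected miRNAs were chosen for having no detection, so a detected member tends to rank high among them by that choice. The same limit holds for the spot shares of miR-211, miR-204 and miR-346, and for the ranks of miR-204 and miR-346 below. Apart from the floored fit of miR-211 above, no change between groups is given for any member, because no group detected a member on both of its arrays.

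miR-204 differs from miR-211 by a single base and is carried by other probes. In KO cells its sums were 42.7 and -1.33 units untreated, 3.06 and -1.74 units after 12 h, and -0.294 and -1.25 units after 24 h. In WT cells they were -0.230 and 2.32 units untreated, -1.26 and 3.47 units after 12 h, and -0.559 and 2.73 units after 24 h. The same array was high as for miR-211, and on the other 11 arrays the highest sum was 3.47 units, within the never-detected range. On the high array its 2 probes read 26.3 and 16.4 units, 4 of 351 never-detected miRNAs were brighter, and so were 3 of 39 viral miRNAs. How far the probes of each twin bind the RNA of the other was not tested.

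miR-346, reported to rise with spliced XBP1, was the only member detected on a treated array. In KO cells its sums were 54.3 and -9.54 units untreated, -8.09 and 4.21 units after 12 h, and -3.02 and -4.16 units after 24 h. In WT cells they were -7.12 and -2.61 units untreated, -3.65 and 42.4 units after 12 h, and -5.43 and 21.3 units after 24 h. On 3 arrays it was high, and each of these had a replicate at or under background, so no group was set apart from another. The third, replicate 2 of WT cells at 24 h, was not called detected although 0 of 351 never-detected miRNAs were brighter on it. All 4 probes rose together on each of the 3: they read 9.49 to 19.99 units on the KO array, 4.54 to 16.4 units on the WT 12 h array and 4.10 to 7.02 units on the WT 24 h array. By raw file name the 2 WT arrays shared a run, and the KO arrays of that run read 4.21 and -4.16 units. Without replicate 2 of the WT 12 h cells no WT array detected miR-346.

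miR-708, the reported CHOP target, had the opposite record. Its sum was negative on 12 of 12 arrays, with a lowest value of -16.1 units, a median of -11.6 units and a highest of -5.10 units. In KO cells it read -16.0 and -11.0 units untreated, -11.1 and -13.0 units after 12 h, and -5.29 and -12.6 units after 24 h. In WT cells it read -5.81 and -5.10 units untreated, -14.6 and -10.4 units after 12 h, and -12.1 and -16.1 units after 24 h. None of these approached the detected range, and tunicamycin raised it above background on 0 of 8 treated arrays. Of its spots, 2.54% were significantly above background, under the 11.01% of never-detected mouse miRNAs. miR-708* ran from -11.3 to 2.91 units with a median of -1.98 units, and 8.40% of its spots were significantly above background. Even on replicate 1 of untreated KO cells, where miR-204, miR-211 and miR-346 were high, miR-708 read -16.0 units and miR-708* read -11.3 units.

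miR-455 and miR-455* stayed within the never-detected range on all 12 arrays. The sums of miR-455 ran from -5.65 to 5.54 units with a median of 0.559 units. Those of miR-455* ran from -5.78 to 9.35 units, with a median of -3.06 units and the highest value on replicate 1 of untreated KO cells. On the other 11 arrays miR-455* did not exceed -1.28 units. The 2 probes of miR-455 disagreed. One was positive on 10 of 12 arrays, with a median of 3.35 and a highest value of 7.16 units, and the other was negative on 12 of 12 with a median of -2.83 units. Single probes of other miRNAs did the same: of 1119 probes of never-detected mouse miRNAs, 11.4% were positive on at least 10 arrays and 22.3% on none. Of 4 cartilage miRNAs, miR-140 and miR-140* were detected on all 12 arrays. miR-675-5p was detected on none, and miR-675-3p on 1, replicate 1 of untreated KO cells.

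**Figure D2:**
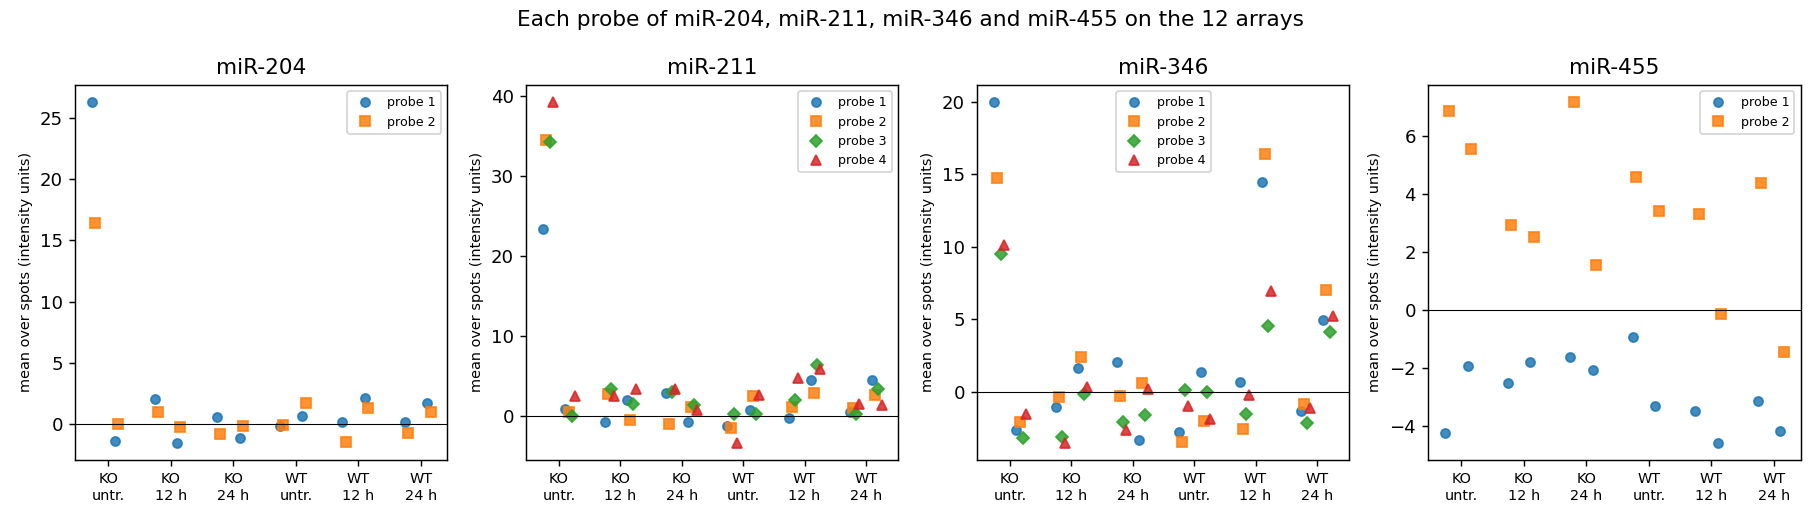
Mean over spots of each probe of miR-204, miR-211, miR-346 and miR-455 on each array, in intensity units, with KO groups left of WT groups and replicate 1 left of replicate 2. All probes of miR-204, miR-211 and miR-346 were high together on replicate 1 of untreated KO cells, the 4 probes of miR-346 also on replicate 2 of the tunicamycin-treated WT groups, and the 2 probes of miR-455 lay on opposite sides of 0 on most arrays.

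The software's own totals differed from these sums for the same detections. Its total gene signal, which the authors deposited on a log2 scale, stood at 43.6 units for miR-211 and 17.4 units for miR-204 on replicate 1 of untreated KO cells. For miR-346 it was 6.63 units there and 10.3 units on replicate 2 of WT cells at 12 h. The total probe signals of the same software added to 43.6 units for miR-211, 28.3 units for miR-204, and 18.03 and 14.1 units for miR-346. The 2 measures differed by more than 5% in 37.5% of all detected pairs, so a faint member's deposited value is not a plain sum of its probes.

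The 11 comparisons of the design could be asked of the 176 mouse miRNAs that some group had detected on its 2 arrays, and 0 of the 7 members were among them. Members called were therefore 0 throughout. The background of calls at an adjusted p under 0.05, in either direction, was as follows. Tunicamycin against untreated gave 25.6% at 12 h and 30.7% at 24 h in KO cells, and 38.1% and 43.2% in WT cells. KO against WT gave 11.4% untreated, 38.1% at 12 h and 34.7% at 24 h. The difference of the tunicamycin response, KO minus WT, gave 24.4% at 12 h and 20.5% at 24 h. Between 24 h and 12 h it was 0.568% in KO cells and 1.14% in WT cells.

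No call came from letting the members in. Among 256 miRNAs detected on at least 1 array, miR-204, miR-211 and miR-346 gave 33 tests in limma with 0 calls, 0 at an unadjusted p under 0.05 and a lowest adjusted p of 0.255. With all 611 mouse miRNAs the 7 members gave 77 tests with 0 calls, 0 at an unadjusted p under 0.05 and a lowest adjusted p of 0.516. In both fits values under a floor were raised to it, which held miR-211 there on 7 of 12 arrays, miR-346 on 9 and miR-204 on 11. miR-708, miR-708*, miR-455 and miR-455* sat at it on all 12. These p-values therefore do not show that the members were alike between groups. By raw file name, treated and untreated arrays belonged to different runs, so a run effect and a tunicamycin effect cannot be told apart.

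The cells carried most of the miRNAs listed as fibroblast markers. Of 9 fibroblast miRNAs, 6 were detected on all 12 arrays, and 6 to 9 were detected per array. miR-152 was detected on 11 arrays, miR-31 on 8 and miR-145 on 1, replicate 1 of untreated KO cells. Of 8 melanocyte, retinal and neural miRNAs, which mark the tissues where miR-204 and miR-211 are best known, 0 to 2 were detected, and those were miR-96, which is also on the response list below, and miR-183. The 5 blood miRNAs were detected on no array. Of 8 epithelial miRNAs, 4 to 5 were detected in KO cells at 12 h and 3 to 5 in KO cells at 24 h, against 0 in untreated KO cells and in every WT group. Their summed signal was 267% to 384% of the array's 75th percentile in KO cells at 12 h and 265% to 321% at 24 h, and at most 1.88% in the other groups.

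The seed of miR-708 was present in these cells through miR-28, the array name matched here to RefSeq miR-28a by dropping its letter. miR-28 was detected on 12 of 12 arrays. Its level, as a percent of each array's 75th percentile, was 47.9 and 45.2 in untreated KO cells, 45.2 and 42.9 after 12 h, and 43.9 and 43.6 after 24 h. In WT cells it was 69.2 and 59.9 untreated, 35.6 and 29.8 after 12 h, and 32.6 and 31.6 after 24 h. On this scale the WT groups did not overlap across treatment, while the KO arrays all lay between 42.9 and 47.9. Before scaling, the KO sums were 298.5 and 271.0 units untreated, 201.5 and 105.5 units after 12 h, and 180.9 and 90.7 units after 24 h. The WT sums were 393.3 and 322.8 units untreated, 219.9 and 142.1 units after 12 h, and 189.4 and 81.0 units after 24 h. In treated against untreated WT cells its limma log2 change was -0.98 ± 0.13 (SE, n = 2 arrays a group, adjusted p = 0.000793) at 12 h and -1.01 ± 0.13 (adjusted p = 0.000681) at 24 h. No run held both treated and untreated arrays, so a run effect cannot be told apart from tunicamycin here. In KO cells the changes were -0.08 ± 0.13 (adjusted p = 0.694) and -0.09 ± 0.13 (adjusted p = 0.648). Over 25 alternative settings the KO change ran from -0.97 to 0.10 at 12 h and from -1.15 to 0.07 at 24 h.

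The difference between these responses, KO minus WT, was 0.90 ± 0.18 at 12 h (SE, adjusted p = 0.0123) and 0.92 ± 0.18 at 24 h (adjusted p = 0.0182), beside a median over all tested miRNAs of 0.37 and 0.44. Under tunicamycin miR-28 was higher in KO than in WT cells, by 0.43 at 12 h (adjusted p = 0.0309) and 0.45 at 24 h (adjusted p = 0.0279). Untreated KO cells read -0.47 relative to untreated WT cells, with limma adjusted p = 0.0552. It became 0.0193 with replicate number as a block and 0.0336 with the runs of untreated and of treated arrays as terms. The fall in WT cells kept its direction under all 25 alternatives, and 21 of them called it at each time. The response difference at 12 h was not called under 7 of 26, and with the unscaled deposited values it was -0.012. At 24 h it was not called under 9 of 26, among them the fits without replicate 2 of WT cells at 24 h (adjusted p = 0.0647) and without replicate 2 of untreated KO cells (adjusted p = 0.0606). KO against WT under tunicamycin kept its call under 13 of 26 alternatives at 12 h, and 2 of the rest turned its sign. It kept its call under 15 of 26 at 24 h. Leaving out 1 array ended the 12 h call for either WT 24 h array, either KO 12 h array or replicate 2 of the WT 12 h cells (adjusted p 0.0508 to 0.167). At 24 h it did so for each array of the 2 groups compared (adjusted p 0.0795 to 0.120). The epithelial miRNAs listed above were detected in tunicamycin-treated KO cells, where no change of miR-28 was called, and on no WT array. Their part in the response difference was not tested. miR-28* was detected on the 2 untreated WT arrays alone, at 11.3 and 2.88 units.

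**Figure D3:**
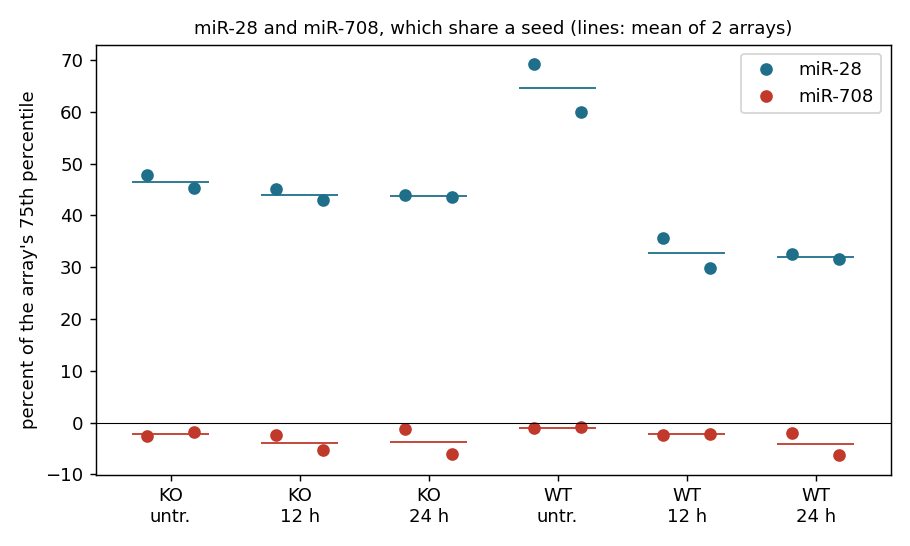
miR-28 and miR-708 on each array as a percent of that array's 75th percentile, with KO groups left of WT groups and lines at the mean of 2 arrays. miR-28 was lower in treated than in untreated WT cells, between 29.8 and 35.6 percent at 12 h, and lay between 42.9 and 47.9 percent in all KO groups, while miR-708 was under 0 on every array.

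For the wider response, 21 miRNAs reported to be changed by, or to act on, the PERK, IRE1 and ATF6 arms were on the array, none of them a member. Of these, 15 were tested and 5 were detected on no array (miR-7b, miR-17, miR-503, miR-30c-2* and miR-153). In KO cells 5 rose and 1 fell at 12 h, against 21.6% and 3.98% of all tested miRNAs, with a median log2 change of 0.02 beside 0.25 over all. In WT cells 6 rose and 4 fell at 12 h, against 14.2% and 23.9% of all tested, with a median of -0.12 beside -0.05. At 24 h 5 rose and 1 fell in KO cells, against 25.6% and 5.11%, and 5 rose and 5 fell in WT cells, against 13.6% and 29.5%. KO against WT, 0 were higher and 4 lower untreated (1.7% and 9.66% of all tested), with 0 and 7 at an unadjusted p under 0.05. With tunicamycin 4 were higher and 3 lower at 12 h (29.5% and 8.52%), and 3 were higher and 2 lower at 24 h (27.3% and 7.39%). Between 24 h and 12 h limma called 0 of the 15 in either genotype, and 2 in each had an unadjusted p under 0.05. With replicate number as a block, 10 of the 15 were called in KO against WT untreated and 10 at 24 h. The counts with calls fell to 0 in each comparison under at least 1 other setting of scaling, background or filter. Leaving out 1 array gave 1 to 4 called in KO against WT untreated. It was 1 without replicate 1 of untreated WT cells and 2 without either untreated KO array. The 10 called in WT cells at 12 h became 6 without replicate 1 of untreated WT cells or replicate 2 of the WT 12 h cells. KO against WT became 4 at 12 h without replicate 2 of the KO 12 h cells, and 3 at 24 h without replicate 2 of the WT 24 h cells.

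The response difference, KO minus WT, was called higher for 4 and lower for 0 of the 15 at 12 h (22.2% and 2.27% of all tested), and likewise for 4 and 0 at 24 h (19.9% and 0.568%). At an unadjusted p under 0.05 it was higher for 5 and lower for 2 at 12 h, and higher for 6 and lower for 2 at 24 h. With replicate number as a block 6 were called in either direction at 12 h and 9 at 24 h. Leaving out 1 array gave 3 to 4 called at 12 h and 1 to 5 at 24 h. At 24 h it was 1 without replicate 2 of the WT 24 h cells or replicate 2 of untreated KO cells, and 2 without replicate 1 of untreated WT, untreated KO or WT 24 h cells. The 4 were the same at both times. miR-106b, of the cluster in Mcm7 reported to be lowered through PERK, rose by 2.37 ± 0.17 in KO cells and 1.42 ± 0.17 in WT cells at 12 h (log2, SE). Its level in KO cells was 4.34 and 4.87 percent of the 75th percentile untreated and 22.5 and 25.1 percent at 12 h, and in WT cells 8.49 and 6.95 percent untreated and 21.2 and 20.05 percent at 12 h. miR-34a, a target of p53 also reported as a substrate of IRE1, changed by 0.02 ± 0.12 in KO cells (adjusted p = 0.939) and fell by 0.86 ± 0.12 in WT cells (adjusted p = 0.00107). Its level in KO cells was 100.0 and 95.4 percent untreated and 98.3 and 100.0 percent at 12 h, against 123.6 and 109.9 percent untreated and 68.1 and 60.6 percent at 12 h in WT cells. miR-34a was itself the 75th percentile on replicate 1 of untreated KO cells and replicate 2 of KO cells at 12 h. Its 100.0 percent there is fixed by the scaling. Before scaling its sums in KO cells were 623.2 and 571.3 units untreated and 438.7 and 245.7 units at 12 h. In WT cells they were 702.0 and 591.9 units untreated and 420.2 and 289.1 units at 12 h.

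miR-7a, known for lowering the EGF receptor, and miR-96, another reported IRE1 substrate and a miRNA of sensory cells, were undetected in untreated KO cells. miR-7a was at least 7.66-fold higher in KO cells after 12 h than in untreated KO cells (adjusted p = 1.56e-06), and it rose by 1.94 ± 0.15 in WT cells. Such a bound sets the mean of a group that detected the miRNA on both arrays against, for each array of the other group, the highest of its lowest detected signal, the floor of the log2 scale and the miRNA's own signal. The adjusted p beside a bound does not test the bound. It comes from limma on the floored values, where both untreated KO arrays sit at the floor for miR-7a and for miR-96. miR-96 was at least 5.18-fold higher in KO cells after 12 h than in untreated KO cells (adjusted p = 9.05e-05), and it rose by 0.75 ± 0.25 in WT cells, a call lost without any 1 of 11 arrays (adjusted p 0.0542 to 0.254). The response difference of miR-106b was not called at 12 h without any 1 of 6 arrays (adjusted p 0.0528 to 0.0885), namely replicate 1 of either untreated group and any array treated for 12 h. At 24 h it was not called without any 1 of 10 arrays (adjusted p 0.0557 to 0.162). All 4 were detected on every treated array, unlike the 7 members. With no scaling between arrays, with scaling over all mouse miRNAs or with normexp background correction, limma called the difference for none of the 4.

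**Figure D4:**
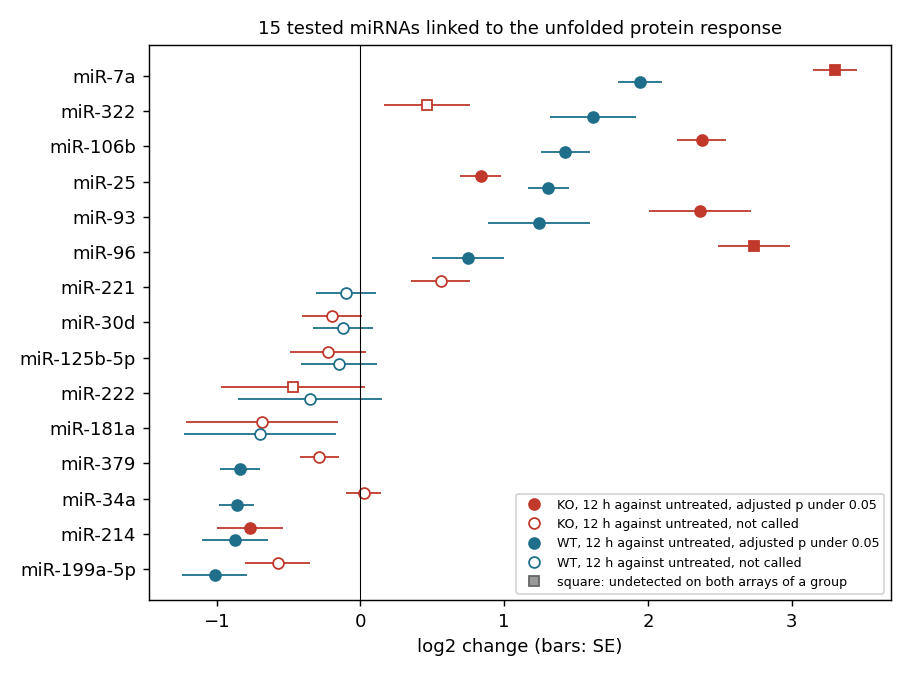
Log2 change after 12 h of tunicamycin for the 15 tested miRNAs linked to the unfolded protein response, in KO cells (upper point of each pair) and WT cells (lower point), with standard errors from limma. Filled points have an adjusted p under 0.05, and squares mark a miRNA undetected on both arrays of 1 of the groups compared. miR-7a, miR-106b and miR-96 lie further right in KO cells than in WT cells.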

How the data were processed

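The authors deposited scanner tables of linear spot intensity and, per the submitters' processing notes, used Agilent Feature Extraction 10.7.1.1. They also deposited a table of log2 values. The deposited log2 values match its total gene signal, logged, to within 1.18e-06, are not scaled between arrays and are empty where a miRNA was not detected. The software's flags for detected miRNAs, spots well above background and outlier spots were used as deposited. Detection is not a plain threshold on the sums used here: the lowest detected sum ran from -2.24 to 19.7 units between arrays.

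Each array holds 13000 miRNA spots of 1857 probes for 611 mouse and 39 viral miRNAs, and 715 control spots that were left out. Background-subtracted intensity was averaged over unflagged spots of a probe and summed over probes. For tests, arrays were divided by the 75th percentile of the 93 miRNAs that every array detected, floored at 1.91% of it (log2 -5.71) and taken to log2. limma 3.58.1 in R 4.3.3 fitted 6 groups with 6 residual and 1.65 prior degrees of freedom, adjusted p-values by Benjamini-Hochberg across 176 miRNAs, and was tested on simulated data. The number of arrays limits the precision.

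Same-numbered arrays of a slide share a run, per the labels' raw file names. Their deviations correlated at 0.48 (untreated) and 0.76 to 0.91 (treated), and at -0.38 to -0.05 between untreated and treated arrays. Named miRNAs were the members, array miRNAs matched by name to a mature sequence sharing a seed with one, and response-list miRNAs with the largest called changes. The members and lists were chosen with earlier results of these data known. Alternatives changed background correction, scaling, floor, filter and blocks, and left out each array.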

Additional observations from a re-analysis of the deposited data

Results flagged for a closer look

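The tunicamycin response differed between genotypes, by the fit's own test of KO minus WT, for miR-28 and 4 miRNAs of the response list. At 12 h the difference on the log2 scale was 0.90 for miR-28, 0.95 for miR-106b, 0.88 for miR-34a, 1.36 for miR-7a and 1.99 for miR-96, with standard errors of 0.18, 0.24, 0.17, 0.22 and 0.35. At 24 h it was 0.92 for miR-28, 0.82 for miR-106b, 0.84 for miR-34a, 1.30 for miR-7a and 1.59 for miR-96. The limma adjusted p lay between 0.00548 and 0.0271 at 12 h and between 0.00711 and 0.0493 at 24 h. Over all 176 tested miRNAs the median of this difference was 0.37 at 12 h and 0.44 at 24 h, and epithelial miRNAs were detected only in tunicamycin-treated KO cells. The part of either in these differences was not tested. For miR-7a and miR-96 the untreated KO level is a limit, so both fitted differences depend on the floor. miR-34a itself set the scale of replicate 1 of untreated KO cells and replicate 2 of KO cells at 12 h.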

How the results depend on the processing

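No member entered the fits limited to tested miRNAs, so the count of members called there was fixed at 0, with each array left out (0 to 0) and under the replicate block (0), and says nothing of stability. Only the fits that admit members bear on it. Under the block, among miR-28 and the 4 miRNAs named for a response difference, 2 calls changed: miR-28 untreated (adjusted p = 0.0193) and miR-96 at 24 h (adjusted p = 0.0407), both KO against WT. Normexp correction without a filter, added after seeing the data, gave 77 member tests, 0 calls, 0 at an unadjusted p under 0.05 and a lowest adjusted p of 0.153. It used the median signal without flagged spots. Signs turned for miR-28 in KO against WT at 12 h (-0.28 unscaled, -0.30 deposited), for its 12 h response difference (-0.012 deposited) and for that of miR-34a (-0.035 deposited). In WT at 12 h they turned for miR-7a (-2.47 total gene signal, -2.30 deposited) and miR-96 (-3.02 and -2.85), where the software's total exceeds its probe signals (miR-7a on untreated WT replicate 1, 1881 against 15.3 units). Leaving out 1 array moved the 12 h response difference of miR-28 between 0.77 and 1.03. Without scaling, the median of all tested miRNAs shifted by -0.79 for that difference. The 24 h response difference was not called without any 1 of 5 arrays for miR-96 and of 2 for miR-34a. Response-list counts ran from 0 to 14 over all alternatives. Faint signal limits every statement on the members.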
